A study of Xenopus laevis with 79 samples.

Results

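The genes zc4h2 and rfx4 of X. laevis were followed through the dissected ectoderm, each by its pair of homeologs (zc4h2.l and zc4h2.s, rfx4.l and rfx4.s). They are 4 of the 45099 loci of the table. The loci were chosen by their levels in these libraries, for a gradient that fell from the neural plate to the nonneural ectoderm (NNE), so their plate-to-NNE values are given as a description with no test. What was tested is what the choice did not use, the differences between anterior and posterior plate and border, the changes with stage, the whole-embryo series, and the ratio of the L and S copies.

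All embryos were wild type X. laevis, with no transgene and no treatment in the labels, and 63 of the 79 libraries came from microdissected ectoderm. Stages (St.) follow Nieuwkoop and Faber. At St. 12.5 there were 3 libraries of anterior neural plate (NPa), 3 of posterior neural plate (NPp), 4 of anterior (NBa), 3 of posterior (NBp), and 3 of lateral (NBl) neural border, 3 in which anterior border and preplacodal ectoderm were dissected as 1 piece (ANB/PPE), and 3 of NNE. At St. 14 there were 3 of NPa, 4 of NPp, 6 of NBa, 5 of NBp, 5 in which anterior neural fold and preplacodal ectoderm were dissected as 1 piece (ANF/PPE), 3 of anterior NNE (NNEa), 3 of posterior NNE (NNEp), 2 of a plate that was not divided (NP), and 4 of a border that was not (NB). At St. 17 there were 4 of neural crest (NC) and 2 of placodes (Pc), and 16 libraries of whole embryos covered 8 stage labels from St. 11-11.5 to St. 18-19, with 2 at each. Fragments from 1 embryo often entered several regions, as embryo numbers in the labels show, and at St. 14 some replicates of a region shared an embryo. NPa gives rise to forebrain and midbrain regions, and NPp to hindbrain and spinal cord.

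Zc4h2 is a small zinc finger protein. In mouse it binds the E3 ubiquitin ligase Rnf220 and takes part in patterning of the neural tube, and in Xenopus it has been tied to the stability of Smads, the transducers of BMP signals, which oppose neural fate in the ectoderm. Rfx4 is a winged-helix transcription factor of the RFX family, and in mouse it is needed for the dorsal midline of the brain and acts on genes of cilia. X. laevis is allotetraploid, and most of its genes are found as a copy on a long (L) and a copy on a short (S) chromosome. The neural plate gives rise to the central nervous system, its border to neural crest and placodes, and the NNE to epidermis.

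Levels are in CPM, the usual unit of counts on a locus relative to all counts on loci of a library, with library sizes scaled by TMM in edgeR, and a log2 difference in a test comes from edgeR's quasi-likelihood F test, with genes called at a false discovery rate (FDR) of 0.05 over all loci tested. Counts on loci summed to 8898486 to 18468048 per library, with a median of 13134905. The labelled regions were then described with marker lists. The authors had selected the dissections by qPCR of markers that included sox2 and an epidermal keratin. The lists are therefore no independent check of the labels. Of the 13 loci of the neural plate list that were tested (sox2, sox11, ncam1, zic and others), 13 were higher in the St. 12.5 plate than in NNE and 12 in the St. 14 plate, beside 16.4% and 23.2% of all loci. Of the 16 loci of the NNE list (keratins, tp63, grhl3 and others), 15 were lower at each stage, beside 23.3% of all loci at St. 12.5 and 23.3% at St. 14. The lists are partial, with 7 of 13 symbols matched to loci for the neural plate and 8 of 13 for NNE. For lists used below, 5 of 7 were matched for primary neurons, 5 of 8 for notochord, and 5 of 6 for paraxial mesoderm. Libraries are bulk tissue, so that fewer cells expressing a gene and less RNA per cell cannot be told apart.

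All 4 loci were high in the plate and low in the NNE at St. 12.5. The locus zc4h2.l was measured at 526, 356, and 918 CPM in NPp and at 329, 188, and 365 CPM in NPa. It was measured at 5.10, 4.98, and 7.14 CPM in NNE. All the plate values therefore lay far above all the NNE values, with the neural border in between. NBp held 169, 119, and 126 CPM of zc4h2.l and NBa 159, 58.8, 74.9, and 99.8 CPM. The border thus overlapped within itself but not with the plate, and NBl (21.4 to 29.9 CPM) and ANB/PPE (17.6 to 34.8 CPM) formed a lower step that overlapped neither NBa nor NNE. The mean log2 level (with a prior count of 2) was 6.09 higher in the plate than in NNE.

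The S copy of zc4h2 had a shallower gradient at St. 12.5. Its levels were 168, 139, and 359 CPM in NPp, 70.6, 47.7, and 93.2 CPM in NPa, and 4.06, 10.2, and 10.2 CPM in NNE. Here NPp and NPa did not overlap, whereas NBp, NBa, and ANB/PPE each overlapped the next in the order. The mean log2 level of zc4h2.s was 3.94 higher in the plate than in NNE.

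The rfx4 copies were close to 0 in the St. 12.5 NNE. Counts of rfx4.l there were 0, 2, and 1, against 537, 417, and 552 in NPa and 774, 425, and 317 in NPp. In CPM, rfx4.l was at 55.3, 32.2, and 37.6 in NPa and at 92.4, 29.7, and 27.3 in NPp, and the 2 parts of the plate overlapped. The pooled ratio of plate to NNE was 469-fold, with a counting interval of 160 to 2273 (exact Poisson, 95%) that covers counting error in NNE only. Counts of rfx4.s in NNE were 2, 4, and 2, and its CPM was 11.2, 1.86, and 7.29 in NPa and 29.7, 9.29, and 13.4 in NPp. The pooled ratio of plate to NNE for rfx4.s was 46.6 (23.7 to 107.99). Its order differed from that of the other loci, since NBp (11.5, 5.43, and 13.2 CPM) had a higher mean than NPa, although these 2 regions overlapped.

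**Figure D1:**
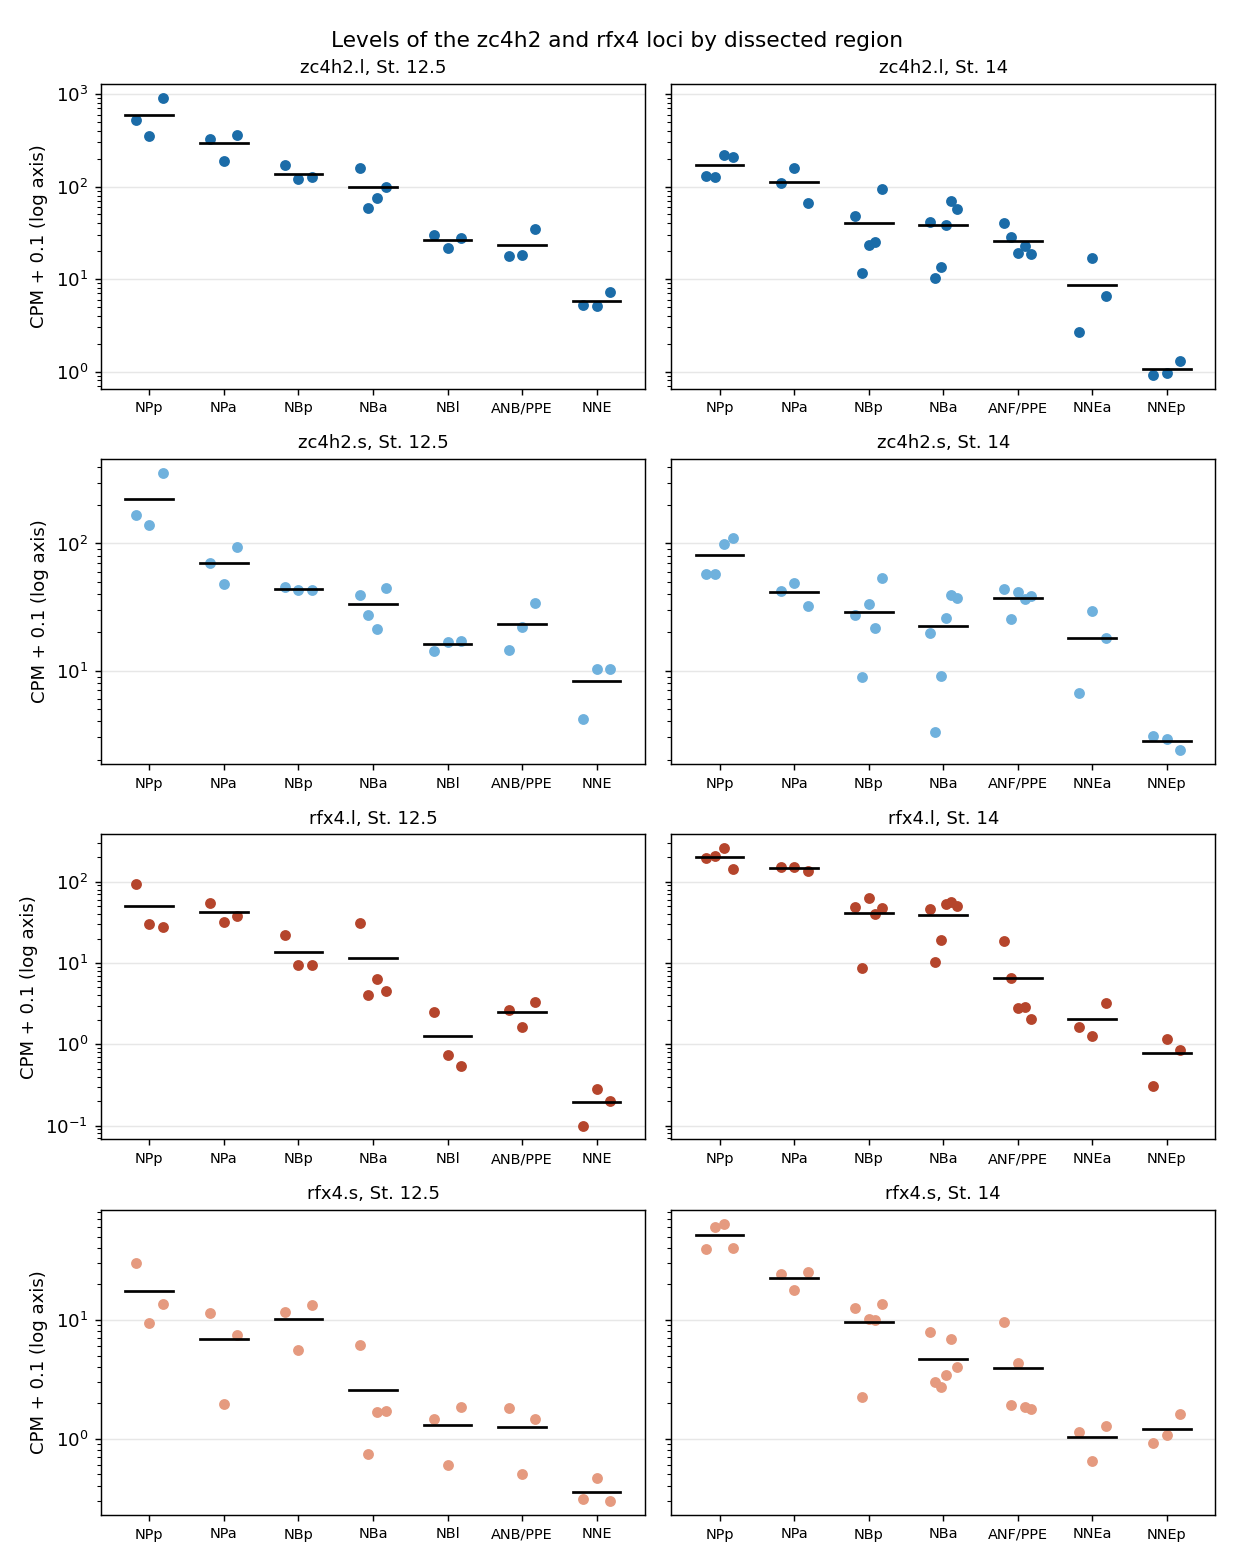
Level of each locus (CPM + 0.1, log axis) in every library of the separately dissected regions, with St. 12.5 on the left and St. 14 on the right. Each point is 1 library and each bar is the group mean, and in every panel the NPp mean is the highest and a nonneural group has the lowest mean.

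At St. 14 the gradient was still present, and the NNE had been cut into an anterior and a posterior part. The locus zc4h2.l was at 131, 128, 220, and 210 CPM in NPp and at 110, 157, and 66.7 CPM in NPa. In NNEa it was at 2.56, 16.7, and 6.43 CPM and in NNEp at 0.820, 0.867, and 1.21 CPM. The 2 nonneural regions did not overlap. For zc4h2.s the levels were 57, 57.8, 98.3, and 111 CPM in NPp and 42.4, 48.8, and 32.3 CPM in NPa. Its levels were 6.63, 29.5, and 17.9 CPM in NNEa and 2.97, 2.79, and 2.27 CPM in NNEp. ANF/PPE, at 25.2 to 43.7 CPM (median 38.8), overlapped NPa for this copy. For zc4h2.l ANF/PPE (18.7 to 40.3 CPM) lay below every NPa library. The border did not separate from the plate for zc4h2.l, since NBp (11.4 to 93.8 CPM, median 25.2) and NBa (10.1 to 69.3 CPM, median 40.1) both reached into the range of NPa. For zc4h2.s NBp (8.87 to 53.6 CPM, median 27.2) and NBa (3.21 to 39.5 CPM, median 22.8) overlapped NPa and also NNEa.

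The locus rfx4.l was at 195, 207, 258, and 142 CPM in the St. 14 NPp, at 151, 151, and 135 CPM in NPa, and at 0.205 to 3.10 CPM in the 6 nonneural libraries. The pooled ratio of the plate mean was 87.5 over NNEa (69.4 to 112) and 257 over NNEp (171 to 405). Neural border libraries ranged widely, from 10.2 to 55.4 CPM in NBa (median 47.8) and from 8.62 to 62.9 CPM in NBp (median 47.7), and none reached the lowest plate value. For rfx4.s the levels were 39.5, 60.2, 64.3, and 40.3 CPM in NPp and 24.3, 17.6, and 25.2 CPM in NPa. The regions with the highest means, NPp, NPa, and NBp (2.16 to 13.5 CPM), did not overlap for rfx4.s. NNEa (0.546 to 1.18 CPM) and NNEp (0.820 to 1.51 CPM) overlapped. Mean log2 levels were higher in plate than in NNE by 5.61 for zc4h2.l, 3.10 for zc4h2.s, 7.15 for rfx4.l, and 4.89 for rfx4.s.

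Pieces of the same embryo are given as a further description of the gradient for which the loci were chosen. Of the 3 St. 12.5 embryos with both pieces, NPa was above NBa in 3 and NPp above NBp in 3, for each of the 4 loci. At St. 14 both relations were found in 2 of 2 embryos for each locus. For NNE at St. 14 the mean of an embryo's nonneural pieces was taken, and these pieces differed. They were NNEa and NNEp in embryo 10, NNEp alone in embryo 11, and NNEa alone in embryo 13. For zc4h2.s, NBa was above this mean in only 1 of 3 embryos and NBp in only 1 of 2. In embryo 10 NBa (3.21 CPM) lay between NNEp (2.97 CPM) and NNEa (6.63 CPM). In embryo 13 both NBa (25.8 CPM) and NBp (21.8 CPM) were below NNEa (29.5 CPM). In embryo 10 of St. 14 the preplacodal piece was above both border pieces for each of the 4 loci, with zc4h2.l at 40.3 CPM against 10.1 CPM in NBa and 11.4 CPM in NBp. In embryo 13 the preplacodal piece was below both border pieces for zc4h2.l (22.6 CPM against 38.6 CPM in NBa and 25.2 CPM in NBp). There it was also below both for rfx4.l and rfx4.s, and above both for zc4h2.s alone. The preplacodal piece of embryo 10 is ANF/PPE replicate 1, in which rfx4.l stood apart from the other ANF/PPE libraries.

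Along the anterior-posterior axis of the St. 12.5 plate, zc4h2.s was higher in NPp. Its means were 222 ± 119 CPM in NPp (SD, n = 3) and 70.5 ± 22.8 CPM in NPa (SD, n = 3), and the log2 difference of 1.70 (SE 0.40) passed the edgeR test with an FDR of 0.0181. Of the 4 loci 1 was called, beside 3.73% of all loci. The other 3 loci did not pass, with log2 differences of 1.07 for zc4h2.l (edgeR FDR 0.168), 0.31 for rfx4.l (FDR 0.877), and 1.41 for rfx4.s (FDR 0.384).

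Plate pieces of the same embryo were then compared. NPp exceeded NPa for zc4h2.s by 2.38, 2.92, and 3.85 times in the 3 embryos, for zc4h2.l by 1.60, 1.90, and 2.52 times, and for rfx4.s by 2.65, 5.01, and 1.84 times. For rfx4.l the ratios were 1.67, 0.921, and 0.725, so that the embryos did not move together. With embryo as a block, 3 of the 4 loci were called, zc4h2.s (1.64, edgeR FDR 0.00438), zc4h2.l (1.05, FDR 0.0396), and rfx4.s (1.55, FDR 0.0391). That fit called 1136 of all 20956 loci for this difference. The call of zc4h2.s was lost without NPa replicate 1 (FDR 0.0696), NPa replicate 2 (FDR 0.131), or NPp replicate 3 (FDR 0.142). It was also lost in a fit of only NPp and NPa (log2 difference 1.71, FDR 0.141) and with the library prefix as a covariate (1.18, FDR 0.119). NPp replicate 3 is the only St. 12.5 region library with the prefix B100. The covariate thus sets that library aside and is no check apart from leaving it out.

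Lists of markers of neighboring tissue were also higher in NPp than in NPa. The 10 loci of the notochord list (copies of t, not, shh, nog, and admp) summed to 399 to 1121 CPM in NPp and to 17.4 to 194 CPM in NPa, and 4 of them were called higher in NPp, beside 2.99% of all loci. Their sum was highest in NPp replicate 3, the library with the highest zc4h2.l and zc4h2.s. The 10 paraxial mesoderm loci summed to 2.98, 253, and 6.11 CPM in NPp and to at most 0.721 CPM in NPa, and 6 of them were called higher in NPp. The part of these tissues in the zc4h2 difference was not tested.

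**Figure D2:**
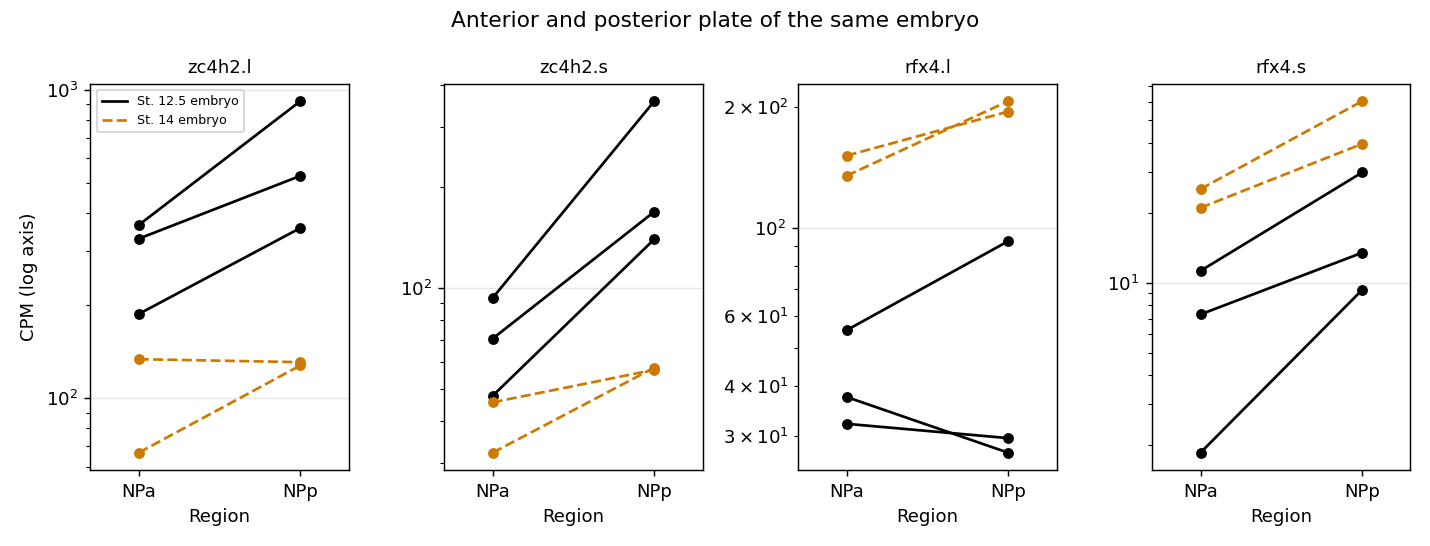
Level of each locus (CPM, log axis) in NPa and NPp of the same embryo, with a line for each of 3 embryos at St. 12.5 (solid) and 2 at St. 14 (dashed). Lines rise in 5 of 5 embryos for zc4h2.s and rfx4.s, and for rfx4.l they rise in 1 of 3 at St. 12.5 and 2 of 2 at St. 14. For zc4h2.l they rise in 3 of 3 at St. 12.5 and 1 of 2 at St. 14. The NPa point of embryo 10 is the mean of St. 14 NPa replicates 1 and 2.

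In the St. 14 plate none of the 4 loci was called by edgeR between NPp and NPa, beside 2.22% of all loci, and DESeq2 and limma-voom called 0. The difference with the lowest p was that of rfx4.s, at 51.1 ± 13.0 CPM in NPp (SD, n = 4) and 22.4 ± 4.15 CPM in NPa (SD, n = 3), with a log2 difference of 1.20 (SE 0.54, edgeR FDR 0.324). It was the only locus of the 4 with an unadjusted p under 0.05, and it was called in a fit of only NPp and NPa (1.18, edgeR FDR 0.0368). The ranges of the 2 regions did not overlap for rfx4.s or for zc4h2.s, and the share of all loci without overlap was not counted. The difference for zc4h2.s was 0.98 (FDR 0.541), that for zc4h2.l 0.63 (FDR 0.799), and that for rfx4.l 0.47 (FDR 0.881). The change of the anterior-posterior difference from St. 12.5 to St. 14 was also tested, and 0 of the 4 loci were called by edgeR, DESeq2, or limma-voom, 0 at an unadjusted p under 0.05, beside 0.227% of all loci.

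In the neural border at St. 12.5 rfx4.s had the widest anterior-posterior difference, but no locus was called. At St. 12.5 it was at 11.5, 5.43, and 13.2 CPM in NBp and at 6.02, 0.646, 1.58, and 1.60 CPM in NBa, with 1 NBa library inside the range of NBp. The log2 difference was 2.00 (SE 0.66, edgeR FDR 0.143), beside 2.93% of all loci called. With embryo as a block it was called (2.13, FDR 0.00970), and it was called without NBa replicate 1 (2.93, FDR 0.0134). DESeq2 and limma-voom called 0 of the 4 loci, and rfx4.s was the only one with an unadjusted p under 0.05. At St. 14 the rfx4.s difference between NBp and NBa was 1.06 (SE 0.42, edgeR FDR 0.308), again the only unadjusted p under 0.05, and 0 of the 4 loci were called by edgeR, DESeq2, or limma-voom, beside 1.67% of all loci. Markers of neighboring tissue moved along this axis too. The notochord list summed to 283 to 817 CPM in NBp and 33.5 to 39.2 CPM in NBa at St. 12.5, and to 11.9 to 306 CPM and 9.30 to 70.2 CPM at St. 14. Of its 10 loci 4 were called higher in NBp at each stage, beside 2.28% and 1.42% of all loci, and of the paraxial mesoderm loci 2 of 10 at St. 12.5 and 3 of the 9 tested at St. 14. Their part in the rfx4.s values was not tested.

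From St. 12.5 to St. 14 zc4h2 fell and rfx4.l rose in the separately dissected posterior plate. In NPp, zc4h2.l fell from 600.0 ± 288 CPM (SD, n = 3) to 172 ± 49.4 CPM (SD, n = 4), a log2 change of -1.90 (SE 0.54, edgeR FDR 0.00461). The S copy fell from 222 to 80.9 CPM on average, with a log2 change of -1.56 (SE 0.51, FDR 0.0128). All 4 St. 14 libraries were below all 3 St. 12.5 libraries for both copies, and for rfx4.l all were above. The share of all loci whose libraries separate in this way between the stages, here or in NPa, was not counted. Over the same interval rfx4.l rose from 49.8 ± 36.9 CPM (SD, n = 3) to 201 ± 47.6 CPM (SD, n = 4), a log2 change of 1.91 (SE 0.70, edgeR FDR 0.0271). The change of rfx4.s was 1.45 (SE 0.62, FDR 0.0585), which missed the threshold, although its St. 14 values (39.5 to 64.3 CPM) all lay above its St. 12.5 values (9.29 to 29.7 CPM). Thus 3 of the 4 loci were called in NPp, beside 40.4% of all loci. Without St. 12.5 NPp replicate 3, 0 of the 4 were called, with changes of -1.33 for zc4h2.l, -0.90 for zc4h2.s, and 1.75 for rfx4.l. The call of rfx4.l was also lost without St. 12.5 NPp replicate 2 (FDR 0.109) or St. 14 NPp replicate 3 (FDR 0.0553), and that of zc4h2.s without St. 14 NPp replicate 1 (FDR 0.0515). The change of rfx4.s was called without St. 12.5 NPp replicate 1 (2.08, FDR 0.0240) or St. 14 NPp replicate 1 (1.63, FDR 0.0461), and with embryo as a random block in limma-voom (1.74, FDR 0.000870). It was called as well with RLE size factors (FDR 0.0452), DESeq2 (FDR 0.0318), limma-voom (FDR 0.00216), the filter at 20 counts (FDR 0.0404), and only the groups compared (FDR 0.0281). With the library prefix as a covariate zc4h2.s was not called (-1.26, FDR 0.0522). Other libraries of this interval did not all show the fall, and they were not tested. Undivided NP of St. 14 averaged 392 CPM of zc4h2.l, inside the range of the St. 12.5 NPp. Its zc4h2.s mean of 89.3 CPM lay below that range. Whole embryos averaged 30.1 CPM of zc4h2.l at St. 12.5, 44.4 CPM at the label St. 14, and 23.8 CPM at St. 14-15. For zc4h2.s these means were 15.7, 26.5, and 9.93 CPM.

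The same directions were seen in NPa. The level of zc4h2.l fell from 294 ± 93.6 CPM (SD, n = 3) to 112 ± 45.4 CPM (SD, n = 3), a log2 change of -1.46 (SE 0.59, edgeR FDR 0.0439), and that of rfx4.s rose from 6.79 to 22.4 CPM on average, a change of 1.65 (SE 0.66, FDR 0.0430). Neither locus overlapped between the stages. The changes of zc4h2.s (-0.84, FDR 0.223) and rfx4.l (1.74, FDR 0.0516) did not pass, and 2 of 4 loci were called, beside 40.1% of all loci. The 3 St. 14 NPa values of rfx4.l (135 to 151 CPM) nevertheless lay above those of St. 12.5 (32.2 to 55.3 CPM), and it was called with embryo as a random block in limma-voom (2.01, FDR 0.00318), with RLE size factors (FDR 0.0395), DESeq2 (FDR 0.0289), limma-voom (FDR 0.00730), the filter at 20 counts (FDR 0.0395), and only the groups compared (FDR 0.00113). In that last fit zc4h2.s was called too (-0.83, FDR 0.0371). The call of zc4h2.l was lost without St. 12.5 NPa replicate 1 (FDR 0.0967) or 3 (FDR 0.120) or St. 14 NPa replicate 1 (FDR 0.109) or 3 (FDR 0.183), and that of rfx4.s without St. 12.5 NPa replicate 2 (FDR 0.20) or 3 (FDR 0.0907) or St. 14 NPa replicate 1 (FDR 0.0673) or 3 (FDR 0.0741). With RLE size factors zc4h2.l missed the threshold (FDR 0.0523), and with no filter both zc4h2.l (FDR 0.0577) and rfx4.s (FDR 0.0509) did. NPa replicates 1 and 2 of St. 14 came from 1 embryo.

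**Figure D3:**
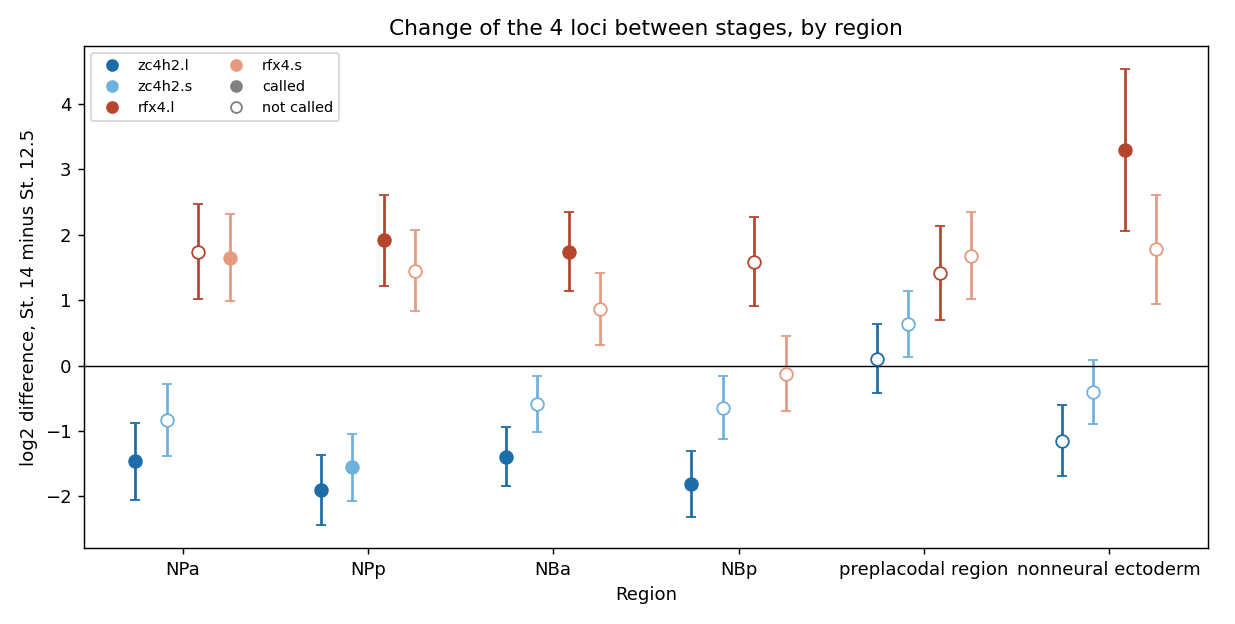
Log2 difference between St. 14 and St. 12.5 (edgeR) for the 4 loci in each region, with bars for 1 SE. Filled points were called at an FDR of 0.05, and in NPa, NPp, NBa, and NBp both zc4h2 copies lie below 0 while rfx4.l lies above it.

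In the neural border zc4h2.l again fell. In NBa, zc4h2.l changed by -1.39 (SE 0.45, edgeR FDR 0.0107) and rfx4.l by 1.74 (SE 0.60, FDR 0.0163), so that 2 of 4 loci were called beside 46.3% of all loci. In NBp, zc4h2.l changed by -1.81 (SE 0.51, edgeR FDR 0.00420), and 1 of 4 loci was called beside 38.3% of all loci. The change of rfx4.l in NBp was 1.59 (FDR 0.0603), and it was called with RLE size factors (1.63, FDR 0.0499), with DESeq2, with limma-voom, and with embryo as a random block (1.51, FDR 0.0387). The S copies moved less in the border, by -0.59 in NBa and -0.65 in NBp for zc4h2.s and by 0.86 in NBa and -0.13 in NBp for rfx4.s, and none of these passed. In NBa the call of rfx4.l was lost without St. 12.5 replicate 2 (FDR 0.0696) or 4 (FDR 0.0679) and in a fit of only the groups compared (FDR 0.0519), and that of zc4h2.l without replicate 1 (FDR 0.0729), when rfx4.s was called (1.81, FDR 0.0134). The NNE list rose in NBp over this interval, with 11 of 16 loci called higher beside 18.3% of all loci (list median 3.31), from a sum of 737 to 2291 CPM to one of 4325 to 11474 CPM. Its part in the NBp changes was not tested. In NBp rfx4.l was called without St. 12.5 replicate 1 (FDR 0.0448) or St. 14 replicate 2 (FDR 0.0294).

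Outside the plate and its border little could be called. In the preplacodal region 0 of 4 loci were called by edgeR, beside 27.2% of all loci, with 1 unadjusted p under 0.05 (rfx4.s, log2 change 1.68, FDR 0.0559), and rfx4.s was called by DESeq2 (FDR 0.0272) and not by limma-voom. It was also called when ANF/PPE replicate 2, 4, or 5 was left out (FDR 0.0380 to 0.0401). Without ANF/PPE replicate 1, which held 9.51 CPM of rfx4.s against 1.67 to 4.22 CPM in the others, the change was 0.98 and was not called. In the NNE, taking the mean of NNEa and NNEp at St. 14, rfx4.l was called higher at St. 14 (edgeR FDR 0.0382), beside 31.4% of all loci. That call rests on 3 counts in the 3 St. 12.5 libraries, against 71 in NNEa and 23 in NNEp, and the pooled ratio was 13.4 with a counting interval of 4.57 to 64.8. It was lost in limma-voom, with embryo as a random block (FDR 0.126), and without any 1 of the 3 St. 12.5 libraries (FDR 0.0736 to 0.104), NNEp replicate 2 (FDR 0.0698), or NNEa replicate 3 (FDR 0.0717). The nonneural changes of zc4h2.l (-1.15, FDR 0.104), zc4h2.s (-0.40, FDR 0.576), and rfx4.s (1.77, FDR 0.103) did not pass, although zc4h2.l was called without NNEa replicate 2 (-1.60, FDR 0.0238). The sign for zc4h2.s depends on averaging NNEa and NNEp on the log scale. Its mean CPM went the other way, from 8.17 at St. 12.5 to 10.3 at St. 14. Whether the stage change of either gene differs between regions was not tested, apart from NPp against NPa as given above.

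Other plate genes also changed between the stages. Of the 13 neural plate loci, 6 fell and 0 rose in NPp, beside 22.4% of all loci that fell, among them zic1.s (-3.08, edgeR FDR 1.57e-06), gmnn.l (-1.95, FDR 1.61e-05), which encodes the neural inducer Geminin, and gmnn.s (-1.93, FDR 0.000763). In NPa 5 fell and 0 rose, beside 20.5% of all loci that fell. Of the 9 primary neuron loci, 5 rose and 0 fell in NPp, beside 18.0% of all loci that rose, among them neurod1.l, a bHLH factor of neuronal differentiation whose counts were too near 0 at St. 12.5 for a fold (FDR 0.0330), tubb2b.s (5.21, FDR 0.00144), and tubb2b.l (2.07, FDR 0.000804), which encode a neuronal tubulin. In NPa 6 rose and 0 fell, beside 19.6% of all loci that rose. The medians were -0.24 for the plate list and 1.81 for the neuron list in NPp, beside 0.02 over all loci. The NNE list was more abundant in the St. 14 plate, with 8 of 16 loci rising in NPp, and it summed to 117 to 185 CPM in the St. 12.5 NPp and to 118 to 3873 CPM in that of St. 14. In NPa it summed to 254 to 686 CPM at St. 12.5 and to 1087 to 4862 CPM at St. 14. The part of such tissue in the stage changes was not tested.

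In whole embryos both rfx4 copies were higher at St. 13 than at St. 11-11.5, where rfx4.l already had 89 and 19 counts. From St. 11-11.5 to St. 13, rfx4.l went from 5.66 and 1.12 CPM to 21.7 and 15.9 CPM, a log2 change of 2.38 (SE 0.49, edgeR FDR 0.00111). This change was 3.96 without replicate 1 of St. 11-11.5 and 1.63 without replicate 2. The S copy went from 3 and 6 counts to 114 and 91 counts, a log2 change of 4.45 (SE 0.51, FDR 1.15e-05). The 2 rfx4 copies were called and the zc4h2 copies were not, beside 63.2% of all loci called. Both rfx4 copies were also called with each of the other tools and filters tried and without any 1 library. From 33.4 and 14.1 CPM at St. 11-11.5, zc4h2.l stood at 28.4 and 23.5 CPM at St. 13 (0.04, FDR 0.933), and the change of zc4h2.s was 0.62 (FDR 0.18). The 2 libraries of St. 11-11.5 differed widely, and zc4h2.s was called higher at St. 13 when replicate 1 of that stage was left out (1.43, FDR 0.00632).

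From St. 13 to St. 18-19 none of the 4 loci was called by edgeR, DESeq2, or limma-voom, none had an unadjusted p under 0.05, and 16.9% of all loci were called. The log2 changes were -0.52 for zc4h2.l, -0.62 for zc4h2.s, 0.36 for rfx4.l, and -0.21 for rfx4.s. At St. 18-19 rfx4.l was at 24.7 and 25.1 CPM and zc4h2.l at 19.7 and 17.7 CPM. Libraries labelled St. 14 stood out within the series for zc4h2, at 41.5 and 47.4 CPM for the L copy and 22.5 and 30.5 CPM for the S copy, whereas those labelled St. 14-15 held 25.5 and 22 CPM and 9.62 and 10.2 CPM. This step was noticed after its values were seen and was not tested. Marker sums of the libraries labelled St. 14 were out of stage order too. Their paraxial mesoderm list summed to 486 to 517 CPM, against 848 to 871 CPM at St. 13 and 1077 to 1122 CPM at St. 14-15. For the notochord list the sums were 379 to 401 CPM, against 325 to 338 CPM and 207 to 221 CPM. Whether this bears on the zc4h2 values was not tested.

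**Figure D4:**
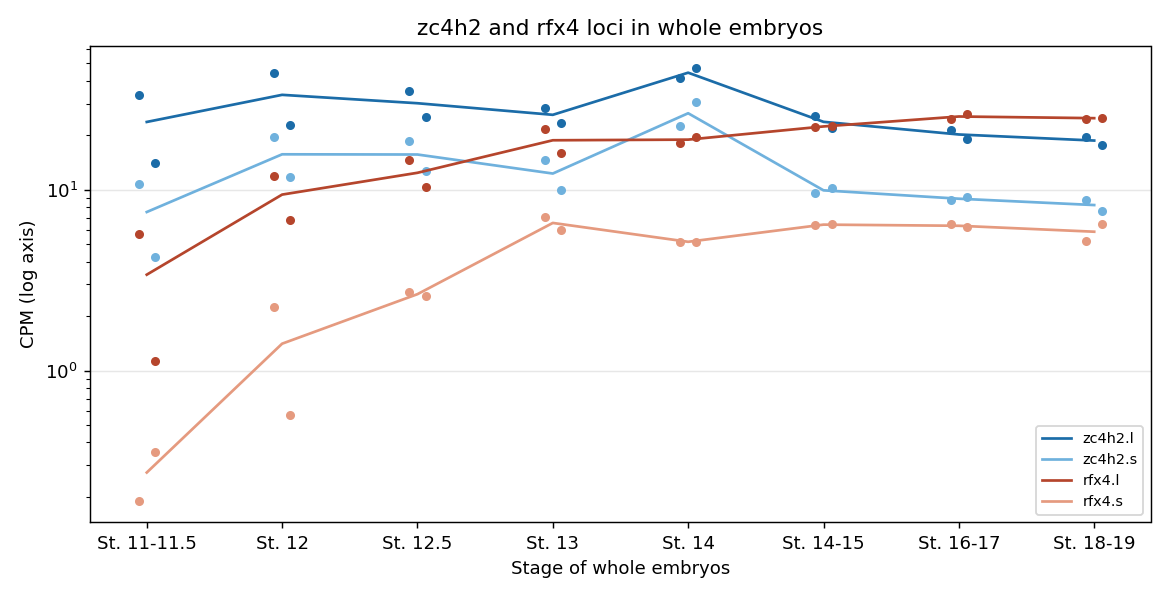
Level of each locus (CPM, log axis) in whole embryos at 8 stage labels, with a point for each of 2 libraries and a line through the means. Both rfx4 copies climb from St. 11-11.5 to St. 13 and level off. The zc4h2 copies are highest in the libraries labelled St. 14, whose paraxial mesoderm and notochord sums are out of stage order.

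The L copy held more of the zc4h2 counts in every plate library than in any NNE library. Shares are not corrected for transcript length, and pairs of reads that mapped to both copies were excluded by the authors, so that only their changes are of use. Of all zc4h2 counts, the L copy held 80.6% ± 1.54 (SD, n = 3) in the St. 12.5 NPa, 73.2% ± 2.23 (SD, n = 3) in NPp, 50.2% ± 4.88 (SD, n = 3) in ANB/PPE, and 43.2% ± 11.6 (SD, n = 3) in NNE. At St. 14 it held 72% ± 4.49 (SD, n = 3) in NPa, 68.3% ± 1.91 (SD, n = 4) in NPp, 40.6% ± 9.40 (SD, n = 5) in ANF/PPE, 30.2% ± 5.29 (SD, n = 3) in NNEa, and 26.7% ± 7.08 (SD, n = 3) in NNEp. No nonneural library (21.6% to 55.7%) reached the lowest plate library (65.5%). As this follows the contrast that chose the loci, it is not tested. For rfx4 the L copy held 87.1% ± 6.42 (SD, n = 3) in the St. 12.5 NPa and 72.9% ± 5.14 (SD, n = 3) in NPp, and the nonneural shares rest on too few counts to be compared.

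**Figure D5:**
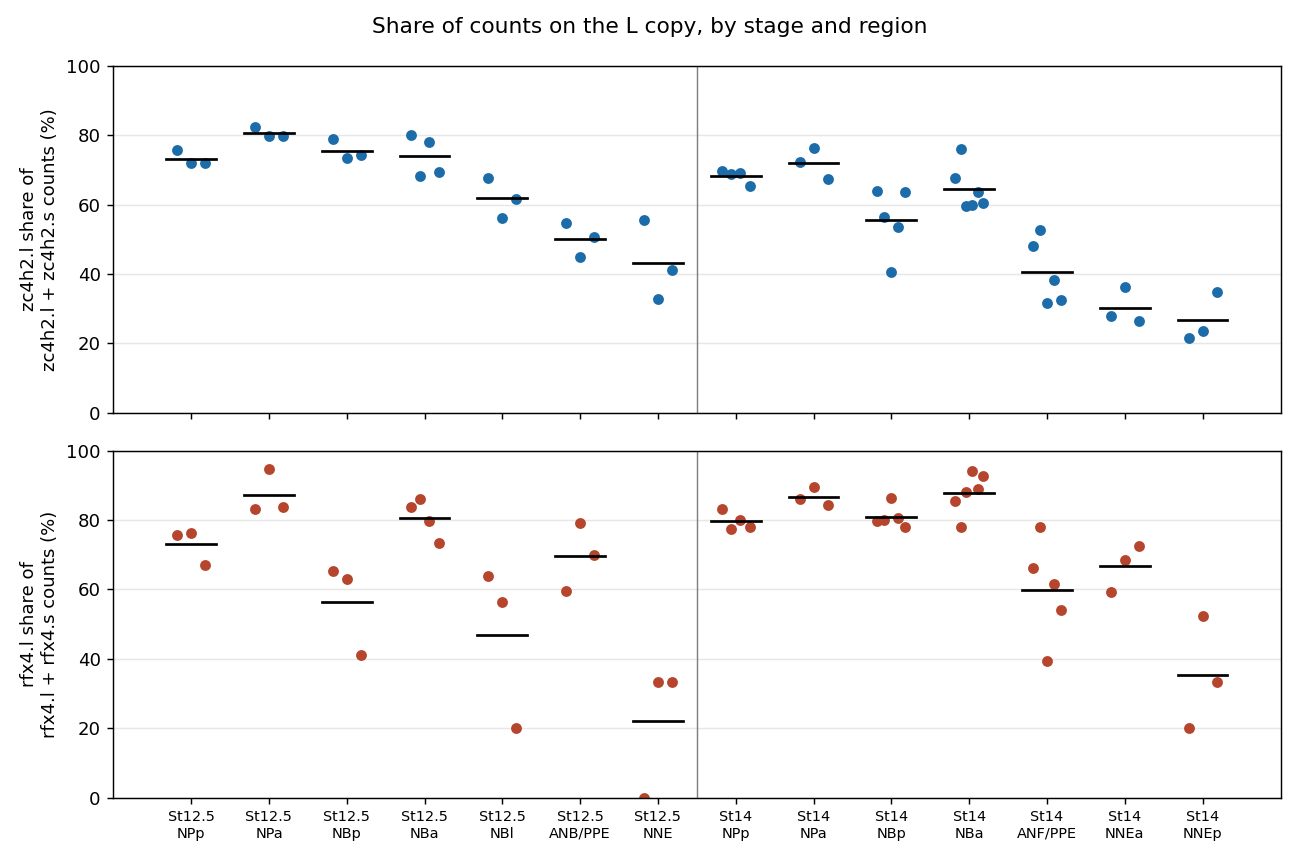
Share of the counts of each gene that lay on its L copy (percent), in every library of the separate regions, with bars for group means. For zc4h2 the nonneural points lie below all plate points, and for rfx4 the St. 12.5 NNE points rest on 2 to 6 counts each.

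Within the plate the ratio of the copies was tested with limma over all pairs of copies. From NPa to NPp at St. 12.5, the log2 ratio of L over S changed by -0.60 for zc4h2 (SE 0.29, limma FDR 0.355) and by -1.47 for rfx4 (SE 0.67, FDR 0.308), beside 3.03% of all pairs called. At St. 14 the changes were -0.26 and -0.74 (FDR 0.881 and 0.644), beside 0.779% of all pairs. Between stages neither ratio was called in NPa, where 33.5% of pairs were called, or in NPp, where 34.5% were. In whole embryos the zc4h2 ratio fell from St. 11-11.5 to St. 13 by 0.57 on the log2 scale (SE 0.19, limma FDR 0.0300), beside 48.6% of all pairs, and the call was lost without St. 11-11.5 replicate 1 (FDR 0.0550) or 2 (FDR 0.0915) or St. 13 replicate 1 (FDR 0.188). The rfx4 ratio changed by -1.63 (SE 0.74, FDR 0.0891) over that interval. It was called without St. 11-11.5 replicate 2 (-3.17, FDR 0.000211), when rfx4.s had 3 counts in the remaining library of that stage. From St. 13 to St. 18-19 neither ratio was called, beside 2.33% of all pairs.

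Among 18850 loci, the other copy was always near the top of the loci most like each one. Pearson's r of the log2 CPM over the 63 dissected libraries, which share embryos and regions, was 0.907 between zc4h2.l and zc4h2.s and 0.897 between rfx4.l and rfx4.s. Only 2 loci were closer to zc4h2.l than zc4h2.s was, 0 were closer to zc4h2.s than zc4h2.l, 2 to rfx4.l, and 5 to rfx4.s. Between the genes r was lower, from 0.640 (zc4h2.s and rfx4.l) to 0.748 (zc4h2.l and rfx4.l), with 215 to 690 loci closer. The zc4h2 and rfx4 loci were chosen for a gradient from plate to NNE in these libraries, and sharing it raises r among them. Their values of r and the numbers of closer loci are therefore a description and no test.

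The 5 loci most like zc4h2.l included grpel2.s (r 0.914), a cochaperone of mitochondrial import, and xelaev18016487m.g (r 0.909), annotated in the study as pgm2l1. The others were zc3h12b.l (r 0.892), cbx3.l (r 0.887), which encodes a heterochromatin protein, and a locus without a gene name. For zc4h2.s they were sox2.1 (r 0.859), the pluripotency and neural progenitor factor, grpel2.s (r 0.856), admp.l (r 0.848), a BMP ligand of the organizer that is also on the notochord list, and 2 without a name. For rfx4.l they included ncam1.l (r 0.900), a neural adhesion molecule, xelaev18039076m.g (r 0.896), annotated in the study as mypop, and fam181b.s (r 0.895). For rfx4.s they included xelaev18029805m.g (r 0.933), annotated as the actin regulator pfn2, mb21d2.1 (r 0.898), and pou3f1.1 (r 0.898), a POU factor of neural cells. The loci loc101731468.l and xelaev18042375m.g were among the 5 for both rfx4 copies. At the other end were golph3l.s (r -0.937) and xelaev18027677m.g (r -0.937, annotated as slc33a1) for zc4h2.l, loc100494819-like.l (r -0.866) and a locus without a name for zc4h2.s, grk6-like.s (r -0.911) and slc9a3r2.l (r -0.903) for rfx4.l, and ovol2.l (r -0.896), an epidermal zinc finger factor, and loc100490052.l (r -0.876) for rfx4.s.

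The partners of Zc4h2 and the other RFX genes were counted as lists. In the St. 12.5 plate against NNE, 2 of 5 loci of the partner list (2 of its 4 symbols were matched) were higher and 1 lower, beside 16.4% of all loci higher and 23.3% lower, and so few loci cannot be told from that background. The ligase locus rnf220.1.l was higher (log2 difference 1.85, edgeR FDR 2.06e-06) and smad1.l, a BMP Smad, was lower (-1.63, FDR 7.91e-05), while rnf220.2.s was called higher (FDR 0.0147) with no count in any NNE library, so that no fold is given. At St. 14, 3 of the 5 were higher and 0 lower, beside 23.2% and 23.3% of all loci, with rnf220.1.l at 1.16 (FDR 2.65e-06) and rnf220.1.s at 0.59 (FDR 0.00277). Within the plate rnf220.1.l was called higher in NPp than in NPa at St. 14 (0.96, FDR 0.0155), 1 of 5 partner loci beside 1.04% of all loci. From St. 12.5 to St. 14 smad1.l rose in NPa (1.11, FDR 0.00504) and NPp (1.10, FDR 0.00333).

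Of the RFX list, 3 of 7 symbols were matched, to 5 loci. At St. 12.5 0 of the 3 loci tested were higher in the plate than in NNE and 2 were lower, rfx2.l (-1.12, edgeR FDR 0.000924) and rfx2.s (-2.14, FDR 9.35e-08), a regulator of cilia genes in Xenopus, beside the same 16.4% and 23.3% of all loci. At St. 14, 1 of 4 was higher, rfx2.l (1.09, FDR 0.00153), beside 23.2% of all loci. In NPp rfx2.l (1.18, FDR 0.00482) and rfx2.s (0.67, FDR 0.0219) rose between the stages, as rfx4.l did. The list medians of the plate-to-NNE difference were -1.12 at St. 12.5 and 1.01 at St. 14 for the RFX list, and 0.53 and 0.59 for the partner list, beside 0.07 and 0.05 over all loci.

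Undivided and later tissues were described only. The 2 libraries of undivided NP held 412 and 373 CPM of zc4h2.l, above all 7 libraries of NPa and NPp at St. 14 (66.7 to 220 CPM), while their rfx4.l levels of 195 and 119 CPM were near those of the divided plate. The S copy of zc4h2 did not stand apart, at 90.7 and 87.8 CPM against 32.3 to 111 CPM in the divided plate. Both NP libraries have the prefix B100 and none of the divided plate libraries of St. 14 does, so that prefix and dissection cannot be told apart. They summed to 235 and 2303 CPM of the paraxial mesoderm list. Undivided NB held 29.5 to 75.4 CPM of zc4h2.l and 20.6 to 66.8 CPM of rfx4.l. In the St. 17 NC, rfx4.l was at 11.1, 15.3, 13.6, and 28.3 CPM and zc4h2.l at 19.1, 32.3, 22.1, and 24.8 CPM. In Pc, rfx4.l had 1 and 2 counts, whereas zc4h2.l was at 7.37 and 7.54 CPM and zc4h2.s at 8.62 and 11.3 CPM.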

How the data were processed

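The authors sequenced polyadenylated RNA as stranded paired reads, aligned the pairs with TopHat2 (2.0.14), left out multi-mapped pairs, and counted them per locus with HTSeq. The deposited values are these raw counts, which were not normalized. Summary entries of HTSeq that name no locus (15.7% to 25.5% of each column) were left out. In R (4.3.3), edgeR (4.0.16) was run on the counts with TMM scaling, on loci where 2 or more libraries of the fit had over 10 counts, with a quasi-likelihood F test and Benjamini-Hochberg adjustment at 0.05. The fits held 22 libraries at St. 12.5 (20956 loci), 29 at St. 14 (22143), 51 over both stages (23390), and 16 of whole embryos (23274). All 4 loci passed each filter. The ratio of copies was tested with limma (3.58.1) on log2 values with 0.5 added to each count. Alternatives were RLE size factors, DESeq2 (1.42.0), limma-voom, other filters, embryo as a block, library prefix as a covariate, only the groups compared, and each library left out in turn, with the dispersion trend of all libraries kept in the refits over both stages. The scripts were tested on simulated data.

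Depth was 8898486 to 18468048 counts per library, and intervals on pooled counts cover counting error only. Nothing in the labels says that whole-embryo libraries came from separate clutches, so that p-values measure the spread between these libraries. Embryo numbers in the labels paired regions. Deviations from the group means of libraries of the same embryo correlated with a median r of 0.24 at St. 12.5 and 0.13 at St. 14. Embryos were nested in stage, so across stages the block was a random term in limma-voom.

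Named loci were the 4 chosen ones, the 5 with the highest and 2 with the lowest Pearson r to each, and of each list the 3 called loci with the largest log2 difference. The members and lists were chosen with earlier results of these data known. Levels were not divided by transcript length, so that they are not compared between loci. Sequences and coordinates are not used here.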

Additional observations from a re-analysis of the deposited data

Results flagged for a closer look

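Each locus was tested for a value far from the rest in the groups of 4, 5, or 6 libraries, and in 2 of these 28 sets 1 library stood apart, and chance alone flags about 1 in 20. In the St. 12.5 NBa, rfx4.l was at 31.0 CPM in replicate 1 and at 6.17 CPM in the next library. Replicate 1 held 673 CPM of the NNE list against 4467 to 5917 CPM in the other NBa libraries, and 131 CPM of ncam1.l against 29.7 to 41.5 CPM. It also held the most zc4h2.l, 159 CPM against 58.8 to 99.8 CPM. The paper describes 1 NBa replicate of St. 12.5 that lay near NPa, with zc4h2.l and rfx4.l above the other replicates. For that replicate the paper proposes a slightly more medial dissection, and its text does not name the library. Replicate 1 is part of the NBa tests above, and its position was not tested. In the St. 14 ANF/PPE, rfx4.l was at 18.7 CPM in replicate 1 and at 6.41 CPM in the next library. That library held 42.2 CPM of shh.l against 0 to 1.18 CPM in the others, and 209 CPM of the notochord list against 30.0 to 40.1 CPM. The part of these tissues in the values was not tested.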

How the results depend on the processing

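Of values for single loci and for copy ratios, 408 kept direction and side of the threshold under settings other than leaving out 1 library. Under these settings 9 were no longer called, 27 became called, and 4 reversed. When 1 library was left out, 402 kept both, 28 were no longer called, 12 became called, and 26 reversed. The cause was not tested in any case below. Between NPp and NPa at St. 12.5, where 1 of 4 loci was called, 3 were called with embryo as a block, beside 1136 of all 20956 loci. This comparison gave 0 with the prefix covariate, 0 with only the groups compared, and 0 to 1 without single libraries. Between NBp and NBa at St. 12.5 (0 called) 1 was called with the embryo block, beside 842 of all 20956 loci. Without single libraries 0 to 1 were called there. Between NPp and NPa at St. 14 (0 called) 1 was called with only the groups compared. For the change with stage, NPa (2 called) gave 0 with no filter, 4 with only the groups compared, and 0 to 2 without single libraries. The share of all loci beside those 4 is not given here. NPp (3 called) gave 0 to 4, and NBa (2 called) gave 1 with only the groups compared and 1 to 2 without single libraries. NBp (1 called) gave 2 with RLE, DESeq2, limma-voom, the filter at 20 counts, the random block, or only the groups compared, and 1 to 2 without single libraries. The preplacodal region (0 called) gave 1 with DESeq2 or the filter at 20 counts and 0 to 1 without single libraries. NNE (1 called) gave 2 with DESeq2 or only the groups compared, 0 with limma-voom or the random block, and 0 to 2 without single libraries. With a prior count of 0.5 the plate-to-NNE difference of rfx4.l at St. 12.5 was 8.63 in place of 7.48.

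Of the 5 loci most like each one, those shared with Spearman's rho, with the 51 libraries of separate regions, and with means of the 18 groups were 2, 3, and 3 for zc4h2.l, 3, 3, and 2 for zc4h2.s, and 3, 1, and 3 for rfx4.l, and with Spearman's rho 3 for rfx4.s.

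Values that reversed were not called in any case. Between NBp and NBa at St. 14, zc4h2.l was at -0.15 with the embryo block and -0.43 with the prefix covariate and rfx4.l at -0.24 with the prefix covariate, and the stage change of zc4h2.l in the preplacodal region was -0.047 with that covariate. Without single libraries, values for NBp against NBa ran from -0.50 to 0.32 for zc4h2.l and -0.11 to 0.36 for rfx4.l at St. 14 and from -0.32 to 1.41 for rfx4.l at St. 12.5, and values for NPp against NPa from -0.53 to 0.60 for rfx4.l at St. 12.5. The change of the anterior-posterior difference ran from -0.72 to 0.044 for zc4h2.l, -0.12 to 0.99 for rfx4.l, and -0.79 to 0.43 for rfx4.s. The stage change ran from -0.43 to 0.13 for rfx4.s in NBp and from -0.12 to 0.49 for zc4h2.l in the preplacodal region, and the change of zc4h2.l in whole embryos to St. 13 from -0.46 to 0.79. Changes of the copy ratio ran from -0.51 to 0.39 for rfx4 in NPa between stages and from -0.060 to 0.23 for zc4h2 in whole embryos after St. 13.

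Over all loci, DESeq2 called 1187 in place of 782 between NPp and NPa at St. 12.5, 954 in place of 491 at St. 14, 614 in place of 370 between NBp and NBa at St. 14, and 206 in place of 53 for the change of the anterior-posterior difference. For these comparisons only the groups compared gave 234, 1047, 128, and 29. Limma-voom gave 192 for NBp against NBa at St. 14 and 14 for the change of the difference. With the embryo block at St. 14, 234 were called between NPp and NPa and 0 between NBp and NBa, where the prefix covariate gave 136. In that block each library without an embryo number formed a level of its own and added nothing to the contrast. At St. 14 only embryos 10 and 13 held both NBa and NBp, so the block is a weak test there.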
